A study of Mus musculus with 20 samples.

Results

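Epididymal white adipose tissue (eWAT) of IR 4A mice was compared with that of wild-type (WT) mice over all genes. The comparison used 10 of the 20 libraries of the study, 5 from each genotype, chosen as all libraries whose labels give this tissue. The other libraries are from liver. The mice were male and 2 months old, and the labels name no treatment. IR 4A mice carry an insulin receptor whose MAD2-binding motif is mutated, and the labels give no strain, no promoter or Cre and no number for the animals. Poly-A RNA was sequenced, and total estimated counts ran from 13651874 to 21615358 per library. Of 20738 genes in the table, 16476 passed the filter on low counts and were tested. Because the labels do not number the animals, p-values here measure the spread between libraries, and in tissue pieces fewer cells of a type and less RNA per cell cannot be told apart.

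The insulin receptor binds insulin at the surface of fat cells, where it stimulates glucose uptake and fat storage and restrains the release of fatty acids. After insulin binds, the receptor is taken into the cell through clathrin-coated pits, and the spindle checkpoint proteins MAD2, BUBR1 and p31comet take part in that step, which is the process the IR 4A form was made to alter. Epididymal fat consists of fat cells, a stroma of progenitor cells, vessels and immune cells, a collagen-rich matrix and an outer mesothelial layer. It lies against the epididymis, the coiled duct in which sperm mature, and close to the testis, so that dissection can carry RNA of both into a fat sample.

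The tissue label was first checked against marker genes. Genes of fat cells were present in every library: the fat hormone gene Adipoq stood at 831, 597, 899, 2173 and 892 CPM (counts per TMM-scaled library total, on the usual CPM scale) in WT 1 to 5 and at 945, 647, 154, 244 and 883 CPM in IR 4A 1 to 5. WT 4 was the highest and IR 4A 3 and IR 4A 4 were the lowest, and the genotypes overlapped. Genes of the epididymal duct were abundant as well. Gpx5, a secreted peroxidase of the proximal epididymis, stood at 11947, 9418, 13121, 10.2 and 17396 CPM in WT and at 12543, 15869, 18041, 17650 and 14247 CPM in IR 4A. WT 4 was far below every other library, and without it the genotypes still overlapped. Prm1, the protamine that packs sperm DNA, stood at 153, 561, 62.8, 4.53 and 19.9 CPM in WT and at 14.4, 23.5, 160, 233 and 5.23 CPM in IR 4A, with WT 1, WT 2, IR 4A 3 and IR 4A 4 above the others.

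WT 4 was poor in part of the epididymis and not in all of it. Of 49 tested genes of the epididymal duct list, 24 stood in WT 4 under 1% of their mean in the other 4 WT libraries, and 27 under 10%. Lcn8, a lipocalin secreted by the proximal duct, stood at 1845, 1671, 2541 and 2981 CPM in WT 1, 2, 3 and 5 and at 0.0503 CPM in WT 4, and Spag11b, a defensin-like gene, at 2568, 2052, 2574 and 3235 CPM against 0.0503 CPM. Another 6 genes of the list were within or above the range of the other WT libraries. Crisp1, a secreted protein that binds sperm and is known from the more distal duct, stood at 2929 CPM in WT 4 against 1461, 2436, 2131 and 1781 CPM in the other WT libraries. Spink8, a protease inhibitor gene of the duct, stood at 821 CPM in WT 4, inside the range of 655 to 873 CPM of the others.

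**Figure D1:**
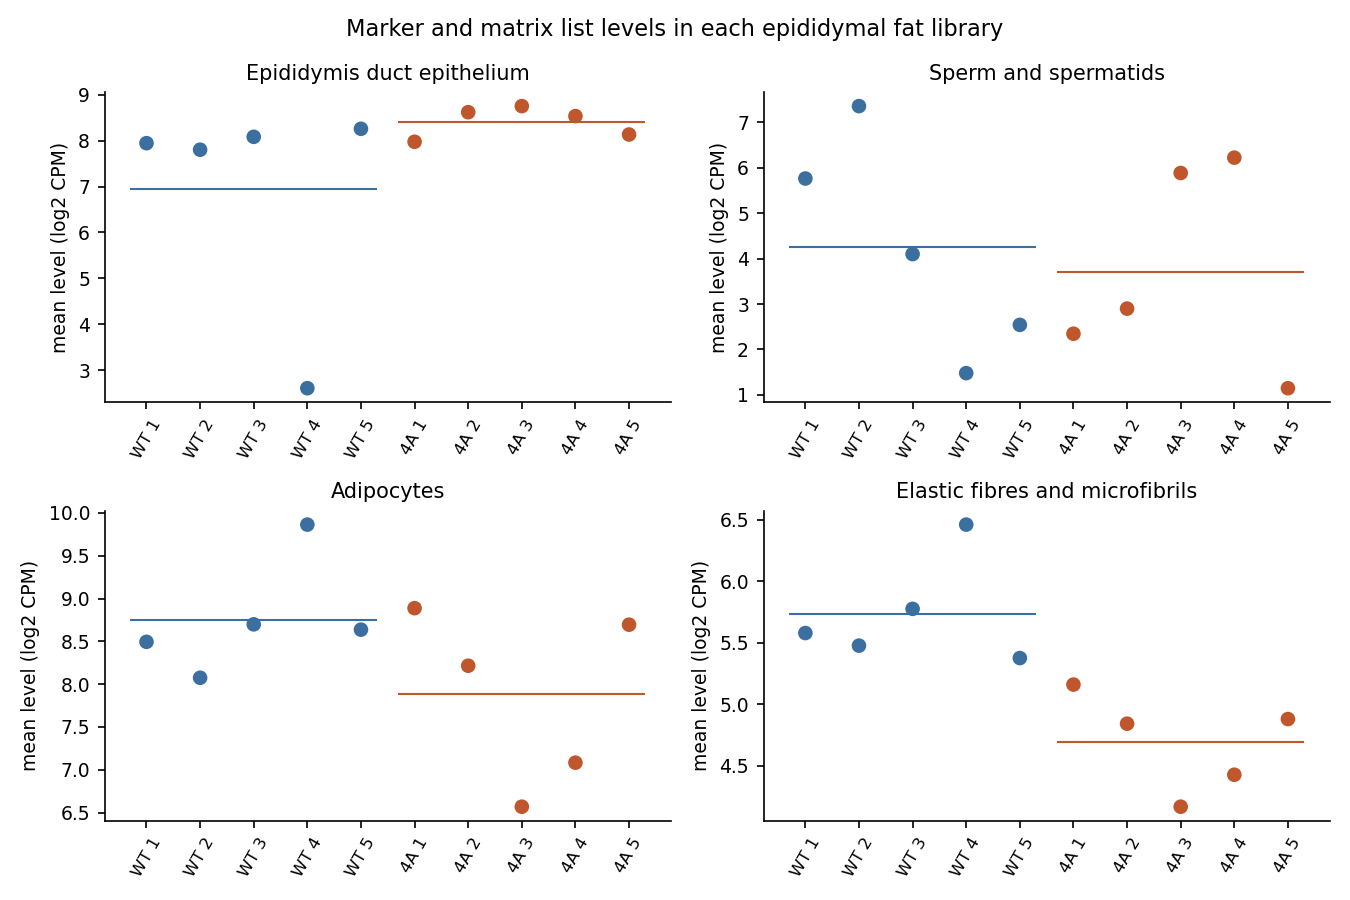
Mean level (log2 CPM, vertical axis) of 4 gene lists in each of the 5 WT (blue) and 5 IR 4A (orange, written 4A) libraries, with lines at the genotype means. WT 4 lies at 2.60 for the epididymal duct list and at 9.86 for the fat cell list, IR 4A 3 and 4 are lowest for fat cell genes, and the elastic fibre list does not overlap between genotypes.

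To separate the sources, each gene was sorted by how it varied between libraries of one genotype, which makes no use of the difference between genotypes. A gene was placed with the list (epididymal duct, sperm or fat cells) with which its deviations correlated most, if Pearson's r was at least 0.8. This placed 1202 genes with the epididymal duct, 2699 with sperm and 3060 with fat cells, and left 9515 unassigned. The points are 10 libraries that share WT 4, and without it only 180 of the 1202 epididymis genes were placed there again, against 2541 of 2699 sperm genes and 2608 of 3060 fat cell genes. The list members contribute to the level they are compared with, and all 31 sperm markers, all 32 fat cell markers and 39 of the 49 duct markers followed their own list.

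The sources differed in direction. Genes of a source were placed there for following the same library levels. Their signs largely repeat those levels, so the counts below are not separate evidence. The level of the sperm list was 4.25 (SD 2.37, n = 5) in WT and 3.70 (SD 2.24, n = 5) in IR 4A (mean log2 CPM). The median log2 fold change of that list turned when WT 2 alone was left out. Of the genes placed with the epididymal duct, 1137 of 1202 had a positive log2 fold change (IR 4A against WT, median 0.38, and 0.20 without WT 4), against 40.1% of all tested genes. Of those placed with sperm, 2415 of 2699 had a negative one (median -0.53, and -0.76 without WT 4), and of those placed with fat cells, 2817 of 3060 (median -0.36, and -0.18 without WT 4), against 59.9% of all tested genes. Unassigned genes had a median of 0.01, and all tested genes one of -0.08. The genotypes did not overlap, with IR 4A lower, for 236 of the 3060 genes placed with fat cells, 295 of the unassigned and none placed with sperm or the duct, against 3.22% of all tested genes. With IR 4A higher they did not overlap for 135 genes placed with the duct, 1 with sperm and 279 unassigned genes, against 2.52% of all tested genes. When libraries were scaled to an equal level of the fat cell list, the median of all tested genes was 0.92 in place of -0.08. Values under that scaling are relative to fat cell genes.

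Over all tested genes the spread between libraries was wide, with a common biological coefficient of variation of 0.512. By edgeR's quasi-likelihood test with Benjamini-Hochberg adjustment, 2 genes fell in IR 4A eWAT (0.0121% of those tested) and 0 rose. At an unadjusted p under 0.05, 1523 genes (9.24%) were lower and 1092 (6.63%) higher, and DESeq2, another count model, called 681 lower and 523 higher. The 2 called genes were Itgbl1 and Tnmd. Without WT 4 neither passed, and edgeR called 0 genes in each direction (924 lower, or 5.41%, and 1070 higher, or 6.26%, at an unadjusted p under 0.05, with 220 each way by DESeq2).

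Itgbl1 (integrin beta-like 1) encodes a secreted protein built of the cysteine-rich repeats found in integrin beta chains. It stood at 18.1, 20.3, 20.7, 20.2 and 17.7 CPM in WT and at 7.16, 9.08, 5.38, 7.86 and 6.79 CPM in IR 4A. Every IR 4A library was below every WT library, and WT 4 lay within the other WT libraries. The log2 fold change was -1.42 (SE 0.15, edgeR adjusted p = 0.0440), and -1.40 (SE 0.16, adjusted p = 0.123) without WT 4.

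Tnmd (tenomodulin), a membrane glycoprotein gene of tendon and fat tissue, was named after its values were seen, as its mean level is under the 1 CPM set for named genes. It was read in 30, 17, 33, 21 and 26 estimated counts in WT and in 1, 1, 2, 1 and 0 in IR 4A. The pooled counts, 127 and 5, give a WT level 20.3 times that of IR 4A per total count (95% exact interval 8.49 to 63.7, counting error only). The log2 fold change was -4.23 (SE 0.47, edgeR adjusted p = 0.0440), and -4.31 (SE 0.55, adjusted p = 0.165) without WT 4.

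Cnmd (chondromodulin), the closest relative of Tnmd and also named after its values were seen, stood at 4.12, 3.49, 4.12, 2.52 and 2.79 CPM in WT and at 1.22, 0.887, 0.276, 0.600 and 0.849 CPM in IR 4A. The genotypes did not overlap, and WT 4 was here the lowest WT library. The log2 fold change was -2.14 (SE 0.36, edgeR adjusted p = 0.153). None of these 3 genes followed the epididymis, sperm or fat cell level across libraries of one genotype.

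The promoters of these 3 genes are shown because they are the genes called in the 10 libraries and the relative of one of them. They were chosen from a larger set, as 295 unassigned genes were lower in IR 4A without overlap. Each is the run of 250 bases before the RefSeq start in the build GRCm38.p6, 5′ to 3′ on the strand of the gene, for Tnmd at chrX:133850758-133851007 on the plus strand, for Cnmd at chr14:79662184-79662433 on the minus strand and for Itgbl1 at chr14:123659890-123660139 on the plus strand. Capitals mark CATCTG on either strand, the E-box bound by several factors of mesenchymal cells.
Tnmd: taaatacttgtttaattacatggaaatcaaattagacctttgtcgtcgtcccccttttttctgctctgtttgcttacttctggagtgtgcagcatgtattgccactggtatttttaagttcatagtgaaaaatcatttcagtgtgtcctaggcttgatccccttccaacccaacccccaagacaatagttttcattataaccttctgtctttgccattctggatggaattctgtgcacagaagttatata
Cnmd: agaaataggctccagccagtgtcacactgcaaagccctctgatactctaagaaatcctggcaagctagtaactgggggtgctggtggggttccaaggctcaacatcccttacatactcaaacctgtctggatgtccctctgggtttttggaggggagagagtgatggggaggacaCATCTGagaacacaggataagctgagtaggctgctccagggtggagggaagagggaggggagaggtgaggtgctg
Itgbl1: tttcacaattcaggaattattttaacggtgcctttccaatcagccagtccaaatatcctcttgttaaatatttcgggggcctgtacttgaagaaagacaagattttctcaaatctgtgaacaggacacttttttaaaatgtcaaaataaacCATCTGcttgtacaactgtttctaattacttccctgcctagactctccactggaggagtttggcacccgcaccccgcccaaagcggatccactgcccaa

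The motif occurs once in the Cnmd and once in the Itgbl1 window and not in that of Tnmd, in 14.5% of all 27025 promoters of the same length, and in 10.7% of the promoters of tested genes. It occurs in 10 of the 63 matrix genes with a promoter in the table (15.9%). The forkhead motif TGTTTAC, searched on both strands because insulin acts on forkhead factors, occurs in none of the 3 windows and in 1 of those 63 matrix genes (1.59%). It occurs in 3.09% of all promoters and in 2.29% of those of tested genes. The motif TATAAA occurs in none of the 3 windows, in 7 of the 63 (11.1%), in 13% of all promoters and in 7.34% of those of tested genes. A further set is the 127 genes called lower, further on, with duct- and sperm-following genes left out. Of the 88 with a promoter in the table, 4 hold the forkhead motif (4.55%), 13 CATCTG (14.8%) and 7 TATAAA (7.95%). Differences between these shares were not tested.

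**Figure D2:**
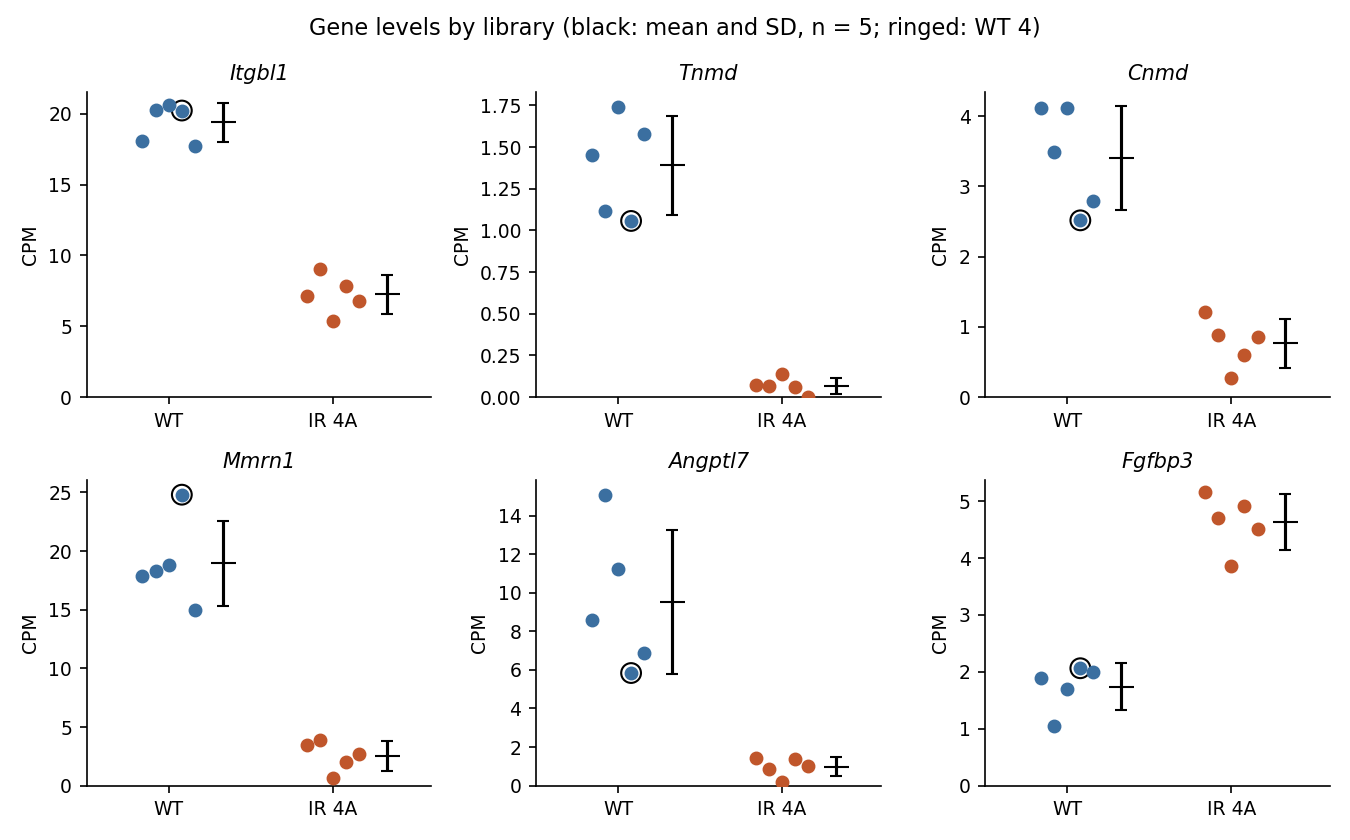
Level of 6 genes (CPM, vertical axis from 0) in each WT (blue) and IR 4A (orange) library, with the mean and SD of 5 libraries in black and WT 4 ringed. In all 6 genes the genotypes do not overlap, with IR 4A lower for Itgbl1, Tnmd, Cnmd, Mmrn1 and Angptl7 and higher for Fgfbp3.

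Several lower genes had separated groups without passing the adjusted threshold. Mmrn1, a secreted multimer of endothelial cells and a marker of lymphatic vessels, stood at 17.8, 18.3, 18.8, 24.8 and 14.97 CPM in WT and at 3.51, 3.89, 0.621, 1.98 and 2.68 CPM in IR 4A (change of -2.90 on the log2 scale with SE 0.42, edgeR adjusted p = 0.106). Angptl7, a secreted angiopoietin-like factor, stood at 8.58, 15.1, 11.3, 5.84 and 6.85 CPM and at 1.43, 0.887, 0.207, 1.38 and 1.05 CPM (-3.25, SE 0.48, edgeR adjusted p = 0.106). Neither pair of groups overlapped, and WT 4 was the highest WT library for Mmrn1 and the lowest for Angptl7. Cdh11, a cadherin of fibroblasts, Fgl2, a fibrinogen-like protein, Flrt2, a guidance receptor ligand, Kcnn3, a potassium channel, and Myrf, a membrane-bound transcription factor, had log2 fold changes of -1.68, -1.39, -1.69, -1.42 and -1.44 with no overlap (edgeR adjusted p from 0.0989 to 0.119).

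Among the higher genes the smallest p was that of Fgfbp3, a secreted protein that binds fibroblast growth factors. It stood at 1.89, 1.05, 1.69, 2.06 and 2.00 CPM in WT and at 5.16, 4.71, 3.86, 4.92 and 4.51 CPM in IR 4A, with no overlap (change of 1.41 on the log2 scale with SE 0.21, edgeR adjusted p = 0.106, and 1.48 without WT 4). Arrdc2, an arrestin-domain gene, had 0.55 (SE 0.09) and Pcbd1, a cofactor-recycling enzyme and transcriptional partner, 0.85 (SE 0.17). The remaining genes named by the rule, Zfp771, Map2k2, Tmem238l, Basp1, Ncam1, Tgfbr3l and Mrps6, had log2 fold changes from 0.31 to 0.86 (edgeR adjusted p = 0.164 for each), and Basp1 among them followed the epididymal duct.

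Genes that followed the epididymis and the sperm lists were then left out, and totals, scaling and test were computed again on the remaining 12561 genes. The common coefficient of variation was then 0.250, and by edgeR's quasi-likelihood test with Benjamini-Hochberg adjustment 127 genes were called lower (1.01% of those tested) and 24 higher (0.191%). The genes left out were chosen by their variation between libraries of one genotype, which the test uses as its error. The lower coefficient, and with it the number of calls, is thus partly built in. With WT 4 also left out and the genes sorted again, 46 of 13773 were called lower (0.334%) and 6 higher (0.0436%), and 45 genes, 43 of them lower, were called in both. Duct list genes were removed only in part in the second of these tables, which still held 24 of them against 9 in the first. Of its 6 higher genes, 4 (Slc15a2, Cttnbp2, Ociad2 and Basp1) followed the duct in the 10 libraries. They no longer did so at r of 0.8 without WT 4, and the source of their difference was not tested. Those 45 include Itgbl1, Tnmd, Cnmd, Mmrn1, Angptl7, Cdh11, Fgl2, Flrt2, Myrf and, among the higher, Fgfbp3. Leaving out the carried genes moved single values little: Itgbl1 had -1.37 (SE 0.13, adjusted p = 0.00759) with 10 libraries and -1.41 (SE 0.14, adjusted p = 0.0103) without WT 4, and Tnmd had -4.18 (adjusted p = 0.00991) and -4.30 (adjusted p = 0.0241). These calls are relative to the remaining RNA as a whole. When the 10 libraries, carried genes included, were scaled on the fat cell list instead, edgeR called 0 genes in each direction, and Itgbl1 had -0.45 (adjusted p = 0.510).

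The extracellular matrix, the collagen-rich scaffold that fibroblasts and fat cells secrete, was lower across its parts. In the 10 libraries 87 of 89 tested matrix genes had a negative log2 fold change (median -1.14, against -0.08 over all tested genes), 62 were lower at an unadjusted p under 0.05, against 9.24% of all genes, and 33 did not overlap between genotypes, against 3.22%. By edgeR none passed after adjustment over all genes in that comparison, while DESeq2 called from 8 to 12 genes lower and 0 higher in each of the 5 matrix lists. Without WT 4 the median was -0.87, with 86 of 89 negative, against 60% of all genes tested there, and 35 not overlapping, against 3.18%. WT 4 had the highest level of each matrix list, so its omission could hardly make groups overlap, and the count of 35 is no separate check. With the carried genes left out, 17 of 86 were called lower, against 1.01% of all genes, and 0 higher, and 9 of these were also called without WT 4, against 0.334%: Col6a5, Col14a1, Col4a5, Lama2, Fbn1, Fbln1, Emilin2, Omd and Timp2.

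**Figure D3:**
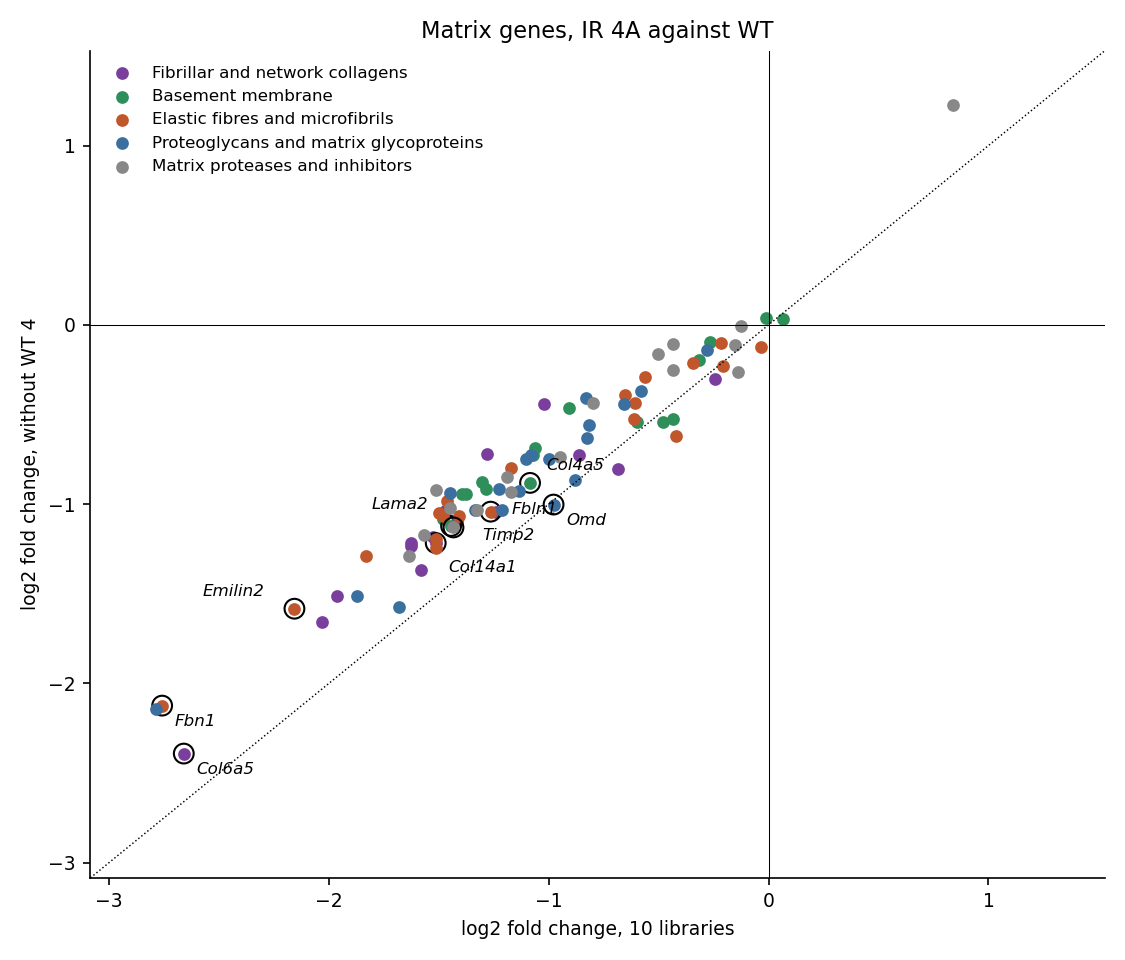
Log2 fold change (IR 4A against WT) of 89 matrix genes in 10 libraries (horizontal axis) and without WT 4 (vertical axis), coloured by list, with the dotted line of equal values. Nearly all points lie below 0 on both axes, and the 9 ringed genes are those called lower with the carried genes left out, both with and without WT 4.

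Col6a5, a chain of the beaded-filament collagen VI, stood at 220, 222, 245, 421 and 161 CPM in WT and at 51.1, 67.4, 15.6, 23.5 and 43.0 CPM in IR 4A. All IR 4A libraries were below all WT libraries, WT 4 was the highest and IR 4A 3 the lowest. With the carried genes left out it fell by 2.62 on the log2 scale (SE 0.35, edgeR adjusted p = 0.0147), and by 2.44 without WT 4 (adjusted p = 0.0332). Of 16 collagens of the fibrillar and network list, all had a negative value (median -1.49, and -1.14 without WT 4). Col1a1 and Col3a1, the main fibre-forming chains, had -1.24 (SE 0.35) and -2.03 (SE 0.51) in the 10 libraries (edgeR adjusted p = 0.211 and 0.194).

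In the basement membrane, the sheet that surrounds each fat cell and vessel, 16 of 17 genes had a negative value (median -1.06, and -0.69 without WT 4). Col4a5, a chain of its collagen IV, stood at 50.7, 51.7, 52.6, 87.7 and 46.4 CPM in WT and at 28.8, 27.1, 22.3, 25.2 and 32.8 CPM in IR 4A. WT 4 stood apart from the other WT libraries, which were close together and still above every IR 4A library. With the carried genes left out Col4a5 fell by 1.02 (SE 0.14, edgeR adjusted p = 0.0188), and by 0.90 without WT 4 (SE 0.09, adjusted p = 0.0103). Lama2, the laminin chain of that sheet in muscle and fat, fell by 1.39 and by 1.15 (edgeR adjusted p = 0.0367 and 0.0421).

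All 20 genes of elastic fibres and microfibrils had a negative value (median -1.22, and -0.89 without WT 4). Fbn1 encodes fibrillin, the core of microfibrils, from which the hormone asprosin is also cut. It stood at 143, 160, 198, 543 and 83.4 CPM in WT and at 60.02, 35.1, 13.9, 21.2 and 36.3 CPM in IR 4A, with WT 4 far above the rest and the genotypes not overlapping. With the carried genes left out it fell by 2.70 (SE 0.49, edgeR adjusted p = 0.0367), and by 2.17 without WT 4 (adjusted p = 0.0499). Fbln1, a fibulin that binds fibrillin and elastin, fell by 1.21 and 1.06, and Emilin2, an elastin-associated glycoprotein, by 2.08 and 1.61.

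All 19 proteoglycans and glycoproteins had a negative value (median -1.08, and -0.87 without WT 4). Omd, a small leucine-rich proteoglycan that binds collagen fibres, stood at 4.90, 5.46, 6.23, 5.08 and 5.76 CPM in WT and at 2.58, 3.21, 2.62, 2.82 and 2.68 CPM in IR 4A. WT 4 lay inside the WT range and the groups did not overlap. With the carried genes left out Omd fell by 0.92 (SE 0.15, edgeR adjusted p = 0.0332), and its value was 0.04 when libraries were scaled on fat cell genes. Of proteases and inhibitors, 16 of 17 had a negative value (median -0.95, and -0.74 without WT 4). Timp2, an inhibitor of matrix metalloproteinases, fell by 1.37 and, without WT 4, by 1.16 with the carried genes left out (edgeR adjusted p = 0.0336 and 0.0332).

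Some genes outside the lists, chosen after their values were seen, are also known from the matrix. Among them 4 passed with the carried genes left out, with and without WT 4. P4ha1, a subunit of the enzyme that hydroxylates collagen, fell by 0.83 (edgeR adjusted p = 0.0335), Pcolce, an enhancer of procollagen cleavage, by 0.77 (adjusted p = 0.0367), and Aebp1, a collagen-binding protein of fibroblasts, by 1.45 (adjusted p = 0.0225). Antxr1, a membrane receptor that binds collagen VI, fell by 1.67 (edgeR adjusted p = 0.0317). Pcolce2, the paralogue of Pcolce, passed there with WT 4 (edgeR adjusted p = 0.0367) and not without it (adjusted p = 0.0625).

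The matrix moved together with the fat cell level of the libraries, and that part of its difference was not tested apart. IR 4A 3 and IR 4A 4, lowest in fat cell genes, were also lowest in the fibrillar collagen list, at 5.07 and 5.44 (mean log2 CPM) against 6.25 to 6.86 in the other IR 4A libraries and 7.05 to 8.32 in WT. IR 4A 1, 2 and 5 had fat cell levels of 8.89, 8.22 and 8.69, inside the range of 8.07 to 9.86 of WT, and their collagen levels were still below every WT library. Levels of the elastic fibre and proteoglycan lists did not overlap between genotypes either. Those of basement membrane and proteases did, with IR 4A libraries reaching 6.855 and 4.68 and WT libraries going down to 6.849 and 4.58. With WT 4, IR 4A 3 and IR 4A 4 left out together, a choice made after seeing the data, the matrix median was -0.52 with 78 of 89 negative, against 50.3% of all genes, and 36 not overlapping, against 8.28%, while the fat cell list had a median of 0.12. WT 4 was the highest WT library in each matrix list and IR 4A 3 and 4 the lowest in IR 4A. Their omission could thus hardly make groups overlap. With libraries scaled on the fat cell list, 56 of 89 matrix genes were negative (median -0.29) and 19 did not overlap with IR 4A lower. Shares over all genes were 5.27% and 0.449%, but that scaling moved all genes up (median 0.92), so they are no separate check. Relative to the fat cell list, mean levels differed (IR 4A minus WT, log2) by -0.62 for fibrillar collagens and -0.33 for proteoglycans. The difference was -0.17 for elastic fibres, -0.01 for basement membrane and 0.02 for proteases. Each of these lists overlapped between genotypes.

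Beside the matrix stood the stromal and immune cell types. The lymphatic endothelial list had a median of -1.38 (5 of 6 negative), and -1.24 without WT 4. With the carried genes left out Mmrn1, Ccl21a and Flt4 were called lower, and Mmrn1 also without WT 4. Ccl21a, a chemokine of lymphatic vessels with near-identical gene copies whose reads cannot be told apart with certainty, averaged 32.9 ± 9.14 CPM (SD, n = 5) over WT libraries and 10.1 ± 5.19 CPM over IR 4A libraries. Blood vessel endothelium had a median of -0.89 (14 of 14 negative, and 13 of 14 without WT 4, median -0.59), with no gene called by edgeR and 2 called lower by DESeq2. Of its 14 genes 13 followed the fat cell list. Relative to that list, mean levels differed (IR 4A minus WT, log2) by 0.01 for blood vessels and by -0.47 for lymphatic vessels, both with overlap. Tek, the angiopoietin receptor, averaged 38.2 ± 18.2 CPM over WT libraries and 16.9 ± 8.42 CPM over IR 4A libraries (SD, n = 5, edgeR adjusted p = 0.242), and its groups overlapped without WT 4.

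Of 20 macrophage genes 16 had a negative value (median -1.03, and -0.65 without WT 4), and 8 did not overlap, against 3.22% of all genes. Another 4 were positive, up to 1.55. At an unadjusted p under 0.05 by edgeR 13 were lower and 1 higher, against 9.24% and 6.63% of all genes, and DESeq2 called 10 lower and 1 higher. The fat cell list was followed by 12 of the 20. Relative to it the mean level differed by -0.03 (IR 4A minus WT, log2), with overlap. With the carried genes left out 6 were called lower, against 1.01%, among them Lyve1, Folr2, Mrc1, Adgre1 and Timd4. None of the 6 passed there without WT 4 (edgeR adjusted p from 0.0718 to 0.115). Lyve1, a hyaluronan receptor of resident macrophages and lymphatic vessels, stood at 17.2, 24.9, 28.6, 60.04 and 19.1 CPM in WT and at 9.81, 6.76, 1.45, 2.46 and 5.42 CPM in IR 4A. Folr2, a folate receptor of the same resident cells, stood at 9.17, 15.3, 17.9, 42.6 and 8.67 CPM and at 4.51, 3.75, 1.24, 2.40 and 5.42 CPM. In both genes WT 4 was far above the other WT libraries, and the genotypes did not overlap. Leaving out the highest WT library can change this only through the scaling, so it is no separate check.

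Mast cell genes had the lowest median of 51 lists, -2.67 (5 of 5 negative, 4 not overlapping), and -1.98 without WT 4. Cpa3, a mast cell protease, stood at 0.679, 1.84, 1.53, 7.20 and 1.15 CPM in WT and at 0.430, 0.273, 0.138, 0.0600 and 0.523 CPM in IR 4A (change of -3.10 on the log2 scale with SE 0.77, edgeR adjusted p = 0.190). The levels of Cpa3 are low, and WT 4 was the highest. Members of the list differed. Their values ran from -3.21 to -0.01, and 1 of 5 was positive with the carried genes left out. The summed level of the list overlapped, from 31.7 to 53.3 CPM in WT and from 24.3 to 34.6 CPM in IR 4A. The mean log2 level of this list relative to the fat cell list did not overlap between genotypes, from -7.26 to -6.26 in WT and from -8.32 to -7.74 in IR 4A. It was the only one of 50 lists so compared for which that held.

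Mesothelial genes had a median of -0.96 (10 of 14 negative), and -0.70 without WT 4, which turned to 0.03 when libraries were scaled on fat cell genes. Members went both ways. At an unadjusted p under 0.05 by edgeR 8 were lower and 2 higher, against 9.24% and 6.63% of all genes, and DESeq2 called 8 lower and 2 higher. The summed level of the list ran from 610 to 757 CPM in WT and from 654 to 772 CPM in IR 4A. Bnc1, a transcription factor of mesothelium, stood at 4.61, 3.82, 4.91, 7.90 and 4.304 CPM in WT and at 1.79, 1.09, 0.483, 1.20 and 1.70 CPM in IR 4A. The genotypes did not overlap, and Bnc1 passed with the carried genes left out (-1.97, SE 0.30, edgeR adjusted p = 0.0225), but not without WT 4 as well (adjusted p = 0.0536). Complement genes, made in this tissue by stroma and macrophages, were negative in 16 of 16 (median -1.22, and -0.89 without WT 4), and 4 were called with the carried genes left out. Relative to the fat cell list their mean level differed by -0.40 (IR 4A minus WT, log2), with overlap. C7, a component of the membrane attack complex, stood at 109, 98.3, 114, 184 and 87.4 CPM in WT and at 42.0, 58.5, 29.9, 37.5 and 46.0 CPM in IR 4A. It fell by 1.41 (SE 0.19, edgeR adjusted p = 0.0145) and, without WT 4, by 1.27 (adjusted p = 0.0234).

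Adipose progenitor genes were negative in 17 of 18 (median -0.42, and -0.30 without WT 4), a direction that turned when libraries were scaled on fat cell genes, and Cd55 was the gene called with the carried genes left out (-1.43, edgeR adjusted p = 0.0489, and 0.0906 without WT 4). Among secreted signals, Igf2, a growth factor, stood at 15.8, 14.7, 16.2, 26.2 and 17.1 CPM in WT and at 10.1, 11.5, 7.31, 9.18 and 9.15 CPM in IR 4A, without overlap. It fell by 0.87 with the carried genes left out (edgeR adjusted p = 0.0332) and by 0.77 without WT 4 (adjusted p = 0.0331), with a value of 0.12 when libraries were scaled on fat cell genes. The authors' deposited DESeq2 value for Igf2 was only -0.18 (SE 0.25, adjusted p = 0.771), and the reason for the difference was not tested. Sfrp1, a Wnt antagonist, and Ccn5, a matricellular protein, fell by 0.91 and 1.55 with the carried genes left out (edgeR adjusted p = 0.0367 and 0.0472) and did not pass without WT 4.

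**Figure D4:**
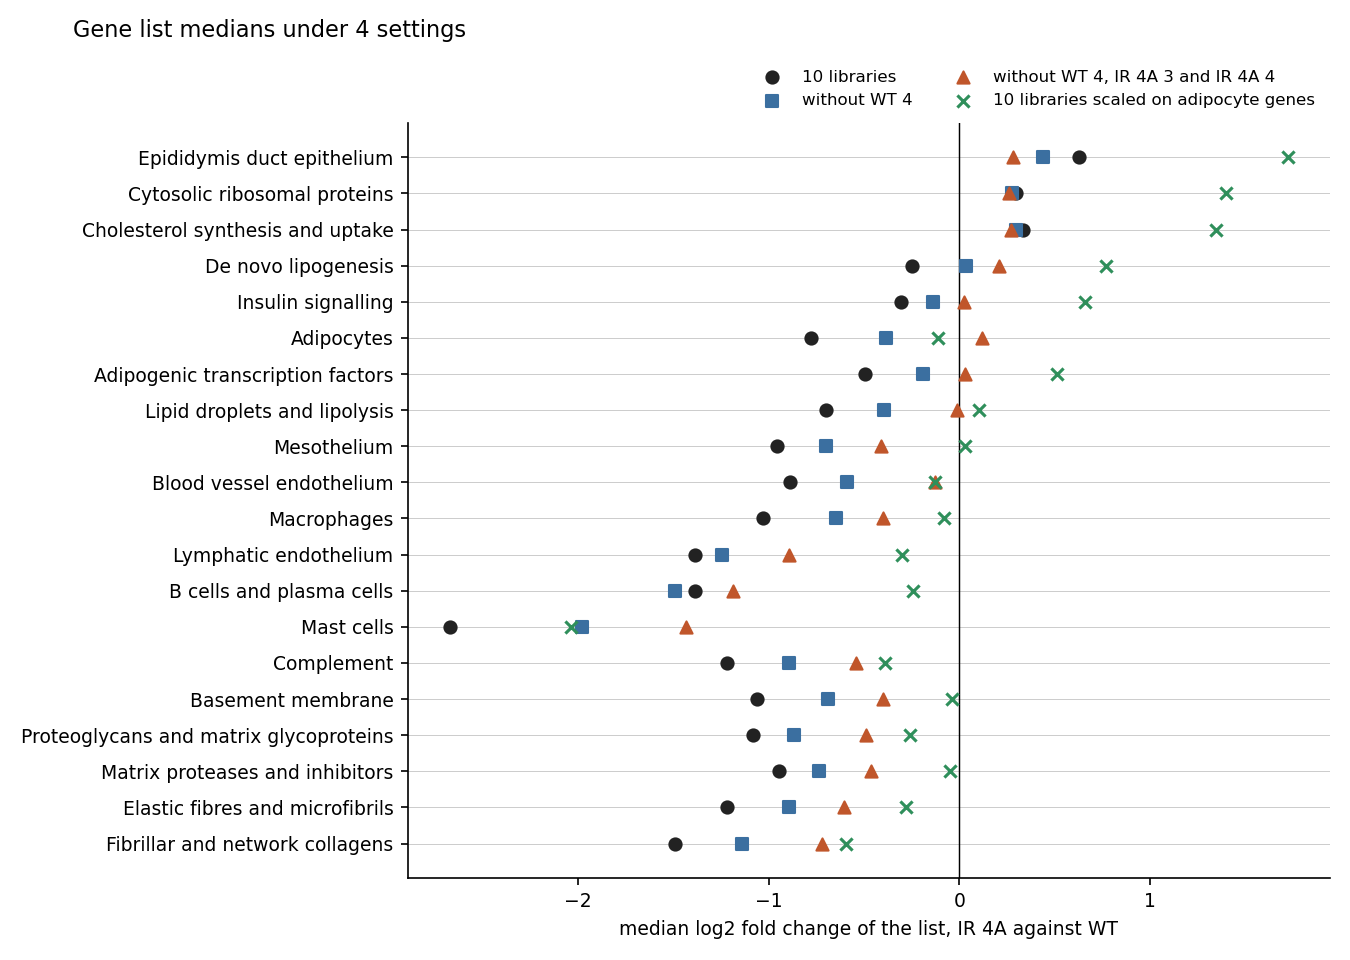
Median log2 fold change (IR 4A against WT, horizontal axis) of 20 gene lists in 10 libraries, without WT 4, without WT 4, IR 4A 3 and IR 4A 4, and in 10 libraries scaled on fat cell genes. The 5 matrix lists lie below 0 in all 4 settings, whereas the fat cell list changes from -0.78 to 0.12 and the lipogenesis list changes sign.

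Genes of the fat cell itself did not pass. The fat cell list was negative in 32 of 32 (median -0.78), in 28 of 32 without WT 4 (median -0.38), and its median was 0.12 with IR 4A 3 and 4 left out too. No member was called by edgeR in any of these 3 comparisons, or by DESeq2 in the 10 libraries. Leptin, the satiety hormone gene Lep, stood at 136, 105, 253, 413 and 159 CPM in WT and at 205, 94.1, 18.3, 57.1 and 194 CPM in IR 4A (change of -0.91 on the log2 scale with SE 0.62, edgeR adjusted p = 0.493). Pparg, the master regulator of fat cells, had -1.04 (SE 0.55), Plin1, the coat protein of the lipid droplet, -0.86 (SE 0.56), and Lipe, hormone-sensitive lipase, -0.73 (SE 0.47), all with overlapping groups. Slc2a4, the insulin-responsive glucose transporter, had -0.36 (SE 0.54) in the 10 libraries and 0.09 (SE 0.51) without WT 4.

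De novo lipogenesis genes gave a median of -0.25 with 10 libraries, 0.03 without WT 4 and 0.77 when scaled on fat cell genes, so no direction held for the list median. Single members were higher. In the 10 libraries DESeq2 called 4 higher and 0 lower, and 3 of 21 did not overlap with IR 4A higher, against 2.52% of all genes. By edgeR none was called after adjustment. Fasn, which makes palmitate, had levels of 899, 627, 1007, 2959 and 767 CPM in WT and at 1557, 666, 381, 423 and 966 CPM in IR 4A. WT 4 was the highest of all libraries, and the groups overlapped (-0.65, SE 0.53, and -0.04, SE 0.41, without WT 4). Srebf1, the lipogenic transcription factor, had -0.03 (SE 0.23) and 0.19 (SE 0.18). Fads1, a desaturase, stood at 220, 178, 227, 150 and 261 CPM in WT and at 274, 294, 290, 272 and 310 CPM in IR 4A, with no overlap (0.47, SE 0.14, edgeR adjusted p = 0.220).

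Of the genes for sterol synthesis and uptake, positive values were found in 17 of 20 (median 0.33), 8 of them at an unadjusted p under 0.05, against 6.63% of all genes, and in 18 of 20 without WT 4 (median 0.30). By edgeR none was called after adjustment, while DESeq2 called 3 higher. Fdps, which makes farnesyl diphosphate, stood at 76.7, 57.7, 70.1, 53.4 and 69.9 CPM in WT and at 88.2, 90.1, 104, 93.1 and 83.4 CPM in IR 4A, with no overlap (0.48, SE 0.11, edgeR adjusted p = 0.173). Insig1, the sterol sensor that retains the SREBP complex, had 0.35 (SE 0.09). Cytosolic ribosomal protein genes were positive in 24 of 24 (median 0.30, and 0.27 without WT 4) and 15 were higher at an unadjusted p under 0.05. DESeq2 called 7 of them higher and 0 lower. Both lists have the direction of the epididymal duct list, which had a median of 0.63. The cholesterol list was highest in IR 4A 2, 3 and 4, at 5.82, 5.69 and 5.85 (mean log2 CPM), and the ribosomal list in IR 4A 2 and 3, at 8.38 and 8.40. The same IR 4A 2, 3 and 4 were highest in duct genes, at 8.62, 8.75 and 8.54. WT 4, lowest in duct genes at 2.60, was also lowest in the cholesterol list, at 5.16, but not in the ribosomal list, at 7.81 against 7.65 in WT 2. Of the ribosomal genes 22 of 24 followed none of the 3 lists and 2 the duct. Of the cholesterol genes 14 of 20 followed none, 4 the duct, 1 sperm and 1 fat cells. The median r with the duct list was 0.33 for ribosomal and 0.62 for cholesterol genes. The source of these differences was not tested. The ribosomal list had a median of 0.37 (22 of 22 positive) and the cholesterol list one of 0.38 (13 of 15 positive) with the carried genes left out.

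In the 10 libraries edgeR called no gene of the insulin signalling, MAD2 and endocytosis, and Ras lists after adjustment, while DESeq2 called 1, 2 and 1 of them higher and 1 of each list lower, and voom called Ide higher. Insr stood at 142, 131, 144, 214 and 160 CPM in WT and at 150, 141, 93.4, 98.6 and 157 CPM in IR 4A. The high library is WT 4 and the low ones are IR 4A 3 and 4, as for fat cell genes, and Insr followed that list. Its log2 fold change of -0.31 (SE 0.19) was -0.17 (SE 0.18) without WT 4, and 0.05 with IR 4A 3 and 4 left out as well. Irs1 and Irs2, the adaptors of the receptor, followed fat cells too (-0.62, SE 0.33, and -0.33, SE 0.25), whereas Igf1r, the related receptor of insulin-like growth factor 1, followed the epididymal duct (0.55, SE 0.28). Igf1r was lowest in WT 4, at 67.6 CPM, against 148 to 237 CPM in the other WT libraries and 200 to 285 CPM in IR 4A.

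Ide, the protease that degrades insulin after uptake, stood at 111, 181, 94.3, 67.3 and 106 CPM in WT and at 196, 204, 225, 255 and 204 CPM in IR 4A. The groups did not overlap, WT 2 being the closest to IR 4A. The log2 fold change was 0.96 (SE 0.23, edgeR adjusted p = 0.173), and 0.82 (SE 0.19) without WT 4. Of the checkpoint genes, Mad2l1 had -0.14 (SE 0.20), Mad2l1bp 0.12 (SE 0.21) and Bub1b, which followed the sperm list, -0.62 (SE 0.40). Map2k2, a kinase of the Ras branch, stood at 49.0, 45.8, 49.6, 49.6 and 51.8 CPM in WT and at 57.7, 59.6, 61.6, 64.0 and 61.1 CPM in IR 4A, a narrow difference without overlap (0.31, SE 0.06, edgeR adjusted p = 0.164). Sos1, the exchange factor upstream of Ras, had -0.30 (SE 0.09) without overlap, which turned to 0.67 when scaled on fat cell genes.

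Duct genes themselves were mostly higher in IR 4A. Of 49 tested, 48 had a positive value in 10 libraries (median 0.63), with 6 higher at an unadjusted p under 0.05, against 6.63% of all genes, and 7 not overlapping, against 2.52%. Without WT 4, 46 were positive (median 0.44), against 40% of all genes, and 22 passed that unadjusted level, against 6.26% of all genes tested there. The mean level of the list still overlapped without WT 4, from 7.80 to 8.26 (log2 CPM) in WT and from 7.98 to 8.75 in IR 4A. Duct genes largely share that level (median r of 0.98 in the 10 libraries), so these counts are not separate results. Spink8 stood at 788, 655, 873, 821 and 837 CPM in WT and at 1443, 1489, 1645, 1112 and 1018 CPM in IR 4A, with no overlap (0.75, SE 0.16, edgeR adjusted p = 0.164, and 0.77 without WT 4). Slc15a2, a peptide transporter that followed the duct in the 10 libraries but not without WT 4, stood at 15.2, 13.3, 13.998, 3.52 and 17.6 CPM in WT and at 32.8, 33.3, 31.8, 36.5 and 46.2 CPM in IR 4A. Without WT 4 its value was 1.27 (SE 0.15, edgeR adjusted p = 0.123). Sperm genes were negative in 31 of 31 (median -0.74, and -1.02 without WT 4), a direction that turned when libraries were scaled on fat cell genes and when WT 2 alone was left out. None was below an unadjusted p of 0.05. Their level was highest in WT 2, at 7.36, followed by IR 4A 4 and 3, at 6.22 and 5.88, so the genotypes overlapped.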

How the data were processed

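The authors' deposited count table holds estimated counts per gene, rounded to whole numbers. The submitters' processing notes name GRCm39, Salmon 1.8.0 and DESeq2 1.32.0 without their settings. Of 20946 entries, 208 repeated an identifier and were dropped. Genes were kept by filterByExpr (minimum count 10, minimum total 15) and tested with edgeR 4.0.16 (TMM scaling, quasi-likelihood F test, Benjamini-Hochberg, threshold 0.05), and the test was checked on simulated data. Estimating counts spreads reads over near-identical genes, which makes values of such copies uncertain. DESeq2 1.42.0, voom with sample weights, other scalings, filters, covariates, the replicate number and omitted libraries were alternatives. The authors' deposited table also gives a mean signal, a log2 fold change with its SE, a test statistic (a score, not used) and p-values: 180 genes positive and 323 negative at an adjusted p under 0.05, with 93.0% of signs equal to those here. No library duplicated another (chi-square per degree of freedom at least 12.8 over 20 pairs). Members and 52 lists (1 had no tested member) were chosen with earlier results of these data known. The text names the 10 genes with the smallest p in each direction, with a mean of at least 1 CPM and groups that do not overlap, 5 each way without WT 4, up to 2 per list, and 24 genes whatever their result. Some that the rule selects are not printed.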

Additional observations from a re-analysis of the deposited data

Results flagged for a closer look

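In each genotype of 5 libraries the highest or lowest library was compared with the rest, and it was listed where its distance to the nearest other library was over 0.71 of the whole range. Chance alone does so in about 5% of groups. Over 266 groups (the printed genes and the list levels) 38 were listed, and 31 of these are WT 4. In WT 4 these fat cell genes lay above the range of the other WT libraries: Adipoq at 2173 CPM (others 597 to 899), Fasn at 2959 CPM (627 to 1007), Plin1 at 1679 CPM, Lipe at 1571 CPM, Pparg at 196 CPM and Irs2 at 117 CPM. The matrix and stromal genes Fbn1 (543 CPM), Dcn (1266 CPM), Timp2 (484 CPM), Lama2 (143 CPM), Col4a5 (87.7 CPM), C7 (184 CPM), Igf2 (26.2 CPM), Myrf (31.4 CPM), Bnc1 (7.90 CPM) and Lrrn4 (37.0 CPM) were above it as well. So were the macrophage genes Lyve1 (60.04 CPM) and Folr2 (42.6 CPM), the mast cell genes Cpa3 (7.20 CPM) and Tpsb2 (8.15 CPM) and the endothelial genes Tek (70.3 CPM) and Vwf (135 CPM).

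The mean log2 CPM of WT 4 was 2.60 for the epididymal duct list, against 7.80 to 8.26 in the other WT libraries, and 2 genes that followed the duct were low there, Cttnbp2 at 2.47 CPM and Dbpht2 at 0.453 CPM. List levels above the others in WT 4 were mast cells (3.23), insulin signalling (6.25), triglyceride synthesis (7.30), lipid droplets and lipolysis (7.52), glucose uptake and glycolysis (7.26) and the citric acid cycle (7.48).

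In WT 2 the sperm genes Prm1 and Tnp1 stood at 561 and 650 CPM, the brown and beige fat list at 2.48, and the immediate early list was low at 3.96. In IR 4A, Pcbd1 was low in IR 4A 4 (20.1 CPM), Tmem238l high in IR 4A 3 (31.4 CPM) and Mad2l1 high in IR 4A 1 (16.5 CPM).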

How the results depend on the processing

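The edgeR count of 2 lower and 0 higher genes rested on the choice of libraries and settings, and the causes of the changes were not tested. The lower count was 1 with upper-quartile scaling, 1 with the stricter filter, and 0 with no filter, with scaling on fat cell genes, with the epididymis level as a covariate, without WT 1, WT 2, IR 4A 3 and IR 4A 4, and without WT 4, IR 4A 3 and IR 4A 4. Without IR 4A 3 and 4 it was 1, with 1 higher. Leaving out single libraries gave 0 to 4 lower and 0 to 2 higher genes, all from the omission of IR 4A 3, while every other omission gave 0. No pairing is given by the labels, the deviations of libraries with the same number correlated between -0.59 and 0.63, and only number 5 matched best with itself. With the replicate number as a block the lower count was 0. DESeq2 called 681 lower and 523 higher, voom 60 and 18, the epididymis and sperm covariates together 111 and 4, the table without carried genes 127 and 24, and the same without WT 4 46 and 6. Without WT 4, DESeq2 called 220 and 220 and voom 9 and 4. DESeq2 and voom included both Itgbl1 and Tnmd.

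Of 51 list medians, 30 changed sign with scaling on fat cell genes and 16 without WT 4, IR 4A 3 and IR 4A 4. With each library left out in turn, at most 5 did (without WT 2), and the 5 matrix lists did in none of these settings. Log2 fold changes that changed sign were as follows. None is of a gene called in the 10 libraries with all genes, but Omd and Igf2 were called lower with the carried genes left out. With scaling on fat cell genes: Omd 0.036, Insr 0.63, Irs1 0.12, Irs2 0.70, Mad2l1 0.73, Bub1b 0.38, Slc2a4 0.41, Fasn 0.28, Srebf1 1.10, Lipe 0.049, Prm1 0.38, Tnp1 0.10, Sos1 0.67, Abhd5 0.29 and Igf2 0.12. Without WT 4, IR 4A 3 and IR 4A 4: Insr 0.048, Irs2 0.12, Mad2l1bp -0.20, Adipoq 0.036, Lep 0.011, Slc2a4 0.58, Fasn 0.37, Srebf1 0.29, Plin1 0.12 and Lipe 0.13. With the epididymis covariate: Mad2l1bp -0.016, Slc2a4 0.18, Fasn 0.076, Srebf1 0.23 and Gpx5 -0.34, and with the sperm covariate added Srebf1 0.10 and Gpx5 -0.47. Srebf1, near 0 in the main comparison, had 0.040 with upper-quartile scaling, 0.040 and, without WT 4, 0.19 with the carried genes left out, 0.12 by voom, and 0.034 with the block. Slc2a4 had 0.056 without WT 4 and the carried genes. Without IR 4A 3 and 4, Mad2l1bp had -0.12, Slc2a4 0.14 and Srebf1 0.076, and without WT 1, WT 2, IR 4A 3 and IR 4A 4, Mad2l1 had 0.077 and Mad2l1bp -0.14. Mad2l1bp had -0.065 by voom. With single libraries left out in turn, Mad2l1bp ran from -0.042 (without IR 4A 3) to 0.25, Slc2a4 from -0.64 to 0.090 (without WT 4), Srebf1 from -0.15 to 0.19, Prm1 from -1.66 to 0.59 and Tnp1 from -1.95 to 0.46 (both without WT 2).

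Depth limits genes of few counts, such as Tnmd in IR 4A, and 5 libraries of each genotype with a common coefficient of variation of 0.512 limit the rest.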

Other observations

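Other immune genes were measured at low levels. B cell and plasma cell genes were negative in 9 of 9 (median -1.39), and in 8 of 9 without WT 4 (median -1.49). Dendritic cell and MHC class II genes were negative in 11 of 13 (median -0.61, and -0.35 without WT 4), and interferon response genes in 18 of 20 (median -0.49, and -0.30 without WT 4). Both directions turned when libraries were scaled on fat cell genes. Red blood cell genes were negative in 5 of 5 (median -0.67, and -0.64 without WT 4), which turned in the same scaling. Of smooth muscle and pericyte genes, 7 of 12 were positive (median 0.27, and 0.15 without WT 4).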
